A study of Homo sapiens with 24 samples.

Results

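Small nucleolar RNAs (snoRNAs) guide the chemical modification of ribosomal RNA, and in human cells most of them are cut from the introns of longer host transcripts. The 10 non-coding host transcripts described here were SNHG1, SNHG5, SNHG6, SNHG7, SNHG8, SNHG12, SNHG15, SNHG16, GAS5 and ZFAS1. They were selected by symbol after SNHG1 had been seen to fall with both treatments of the study, so the values of SNHG1 in those contrasts are given as a description with no test. Of the 10, 8 had a probe set with 1 gene symbol, out of 22109 genes on the array with such a probe set, and all 8 were among the 17339 genes tested. SNHG6 and SNHG7 were only on probe sets that also carry snoRNA symbols, and are described separately under those names.

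Host genes of this kind commonly begin transcription within a run of pyrimidines, the mark of the 5′ terminal oligopyrimidine (TOP) class that also holds the ribosomal protein genes. The introns give rise to the snoRNAs, and the spliced exons of several hosts are removed from the cytoplasm by nonsense-mediated decay, a quality control pathway that depends on translation. A host transcript and the snoRNAs in its introns can therefore stand at very different levels. GAS5, known for its accumulation in growth-arrested cells, is the most familiar example.

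Transcripts were measured with an Affymetrix array in HAP1, a near-haploid human line that came from KBM-7, a chronic myelogenous leukemia line. The 6 lines were the parental cells (PAR), the line S51A, whose name refers to a substitution in the translation factor eIF2-alpha at the serine that stress kinases phosphorylate, and ΔHRI, ΔGCN2, ΔPKR and ΔPERK, each lacking 1 of the 4 eIF2-alpha kinases by its name (written HRI, GCN2, PKR and PERK below). Cells had no drug (9 arrays), lomustine, an alkylating and crosslinking drug, at 200 µM for 2 h (9 arrays), or the treatment titled SA100 for 2 h (6 arrays). The agent field of the SA100 arrays names lomustine, but the treatment text gives sodium arsenite at 100 µM, and these arrays were grouped by their title. PAR, S51A and HRI had repetitions A and B with no drug and with lomustine, and each of the other 12 groups of line and treatment was 1 array. The labels do not say that A and B are separate cultures, so p-values measure only the spread between these arrays, which may be technical, and whether each line is 1 clone is not stated in them.

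Values were log2 signals, from 0.71 to 12.47 over all probe sets with a median of 2.42, and levels of different probe sets are not comparable with each other. Repetition B of S51A with lomustine stood apart, with 8.72% of its probe sets over 1 log2 unit away from what the other arrays showed in the median, against at most 3.38% elsewhere. The transcripts of the deleted kinases were not at the bottom of the scale in the lines named for their loss. EIF2AK1, which encodes HRI, had a mean of 7.70 in HRI and 7.73 in PAR, and EIF2AK4, which encodes GCN2, had 5.83 in GCN2 and 6.10 in PAR, so the array did not check these labels. PTPRC, which marks blood cells, stayed at or below 2.08 on every array. Other blood markers stood higher, with GATA1 from 3.34 to 4.42 and HBE1 from 2.63 to 3.79 over the arrays. The summed signal of 8 blood markers ranged from 5.59 to 6.14 with no drug, 5.58 to 5.97 with lomustine and 5.73 to 5.90 with SA100. That of 6 epithelial markers ranged from 5.49 to 7.10, 5.54 to 6.97 and 5.56 to 5.89, and that of 5 fibroblast markers from 4.84 to 5.04, 4.91 to 5.24 and 4.71 to 5.08. Among the epithelial markers, EPCAM stood higher in S51A, at 4.16 and 6.66 with no drug, 6.35 and 3.92 with lomustine and 4.02 with SA100, than in PAR, at 2.78 and 2.66, 2.99 and 2.94, and 3.01. The part of these markers in the results, those of S51A included, was not tested.

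The sequences around the annotated start sites show where pyrimidine runs lie near the starts of the hosts, which the choice by symbol did not use. RefSeq promoters of GRCh38.p14 matched 8 of the 10 hosts, and the 50 bases from 20 before to 30 after the start are given for the host that fell most (SNHG1), for 4 whose SA100 levels in S51A and HRI lay below those of the other lines (SNHG12, ZFAS1, SNHG8 and SNHG5) and for GAS5. All are 5′ to 3′ on the transcribed strand. Capitals mark the longest run of C and T that touches the 10 bases on either side of the start.
SNHG1, chr11:62855856-62855905, minus strand: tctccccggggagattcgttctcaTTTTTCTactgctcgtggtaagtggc
SNHG12, chr1:28581844-28581893, minus strand: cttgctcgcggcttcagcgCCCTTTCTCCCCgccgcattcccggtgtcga
ZFAS1, chr20:49278622-49278671, plus strand: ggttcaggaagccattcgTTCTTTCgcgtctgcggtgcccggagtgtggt
SNHG8, chr4:118278742-118278791, plus strand: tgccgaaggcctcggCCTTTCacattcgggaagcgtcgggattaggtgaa
SNHG5, chr6:85678704-85678753, minus strand: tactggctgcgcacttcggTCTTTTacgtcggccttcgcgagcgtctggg
GAS5, chr1:173869016-173869065, minus strand: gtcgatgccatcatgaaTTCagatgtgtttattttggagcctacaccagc
A run of at least 5 pyrimidines was present in 7 of these 8 hosts, against 47.5% of all 35116 promoters in the table, with no chromosome left out. All promoters were searched in the same way on the transcribed strand only. The longest run in the hosts had 12 bases, in SNHG12, and that of SNHG1 had 7. GAS5 was the exception, with 3 bases at the start annotated in this table. A run counted here need not hold the start itself. Those of SNHG1 and SNHG16 begin after it, at bases 5 and 4 of the annotated transcript, and that of SNHG7 ends before it. A match is a description of the letters in this window and not of a site in use.

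SNHG1, the host of a series of box C/D snoRNAs that guide 2′-O-methylation, was lower in every line with both treatments. With no drug it was 4.86 and 5.95 in PAR, 5.30 and 6.32 in S51A, 5.53 and 5.09 in HRI, 5.68 in GCN2, 4.83 in PKR and 4.51 in PERK. With lomustine the same lines gave 3.62 and 4.06, 3.88 and 2.65, 2.72 and 3.81, 3.30, 2.98 and 2.87. Every lomustine array lay below every untreated array, and the lowest value, 2.65, came from S51A repetition B, the array that stood apart. With SA100 the levels were closer together, at 3.04 in PAR, 3.28 in S51A, 3.42 in HRI, 3.35 in GCN2, 3.70 in PKR and 3.46 in PERK. These too did not overlap with the untreated arrays. Over the lines, the change of SNHG1 on the log2 scale was -2.02 with lomustine (SE 0.223) and -1.92 with SA100 (SE 0.251). The difference between the treatments was 0.10 (SE 0.251), less than its standard error.

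None of the other 7 hosts had treated arrays that all lay below the untreated ones. Over all genes tested, 0.0923% had every lomustine array below every untreated array, and 0.433% had every SA100 array below them. For SNHG1 this restates the fall that led to the selection, and nothing is read from it. The size of the decrease varied among lines. With lomustine it was smallest in PAR, a change of -1.56, and largest in S51A, -2.55, while with SA100 it was smallest in PERK, -1.05, and again largest in S51A, -2.53. In S51A, lomustine repetition A alone differed by -1.93 from the mean of the untreated arrays, a smaller change than the -2.38 of GCN2 and the -2.05 of HRI. PKR and PERK, which had the lowest untreated levels, showed the smallest changes with SA100. The differences of the other lines from PAR were not called for SNHG1 with either treatment (limma, adjusted p at least 0.995).

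**Figure D1:**
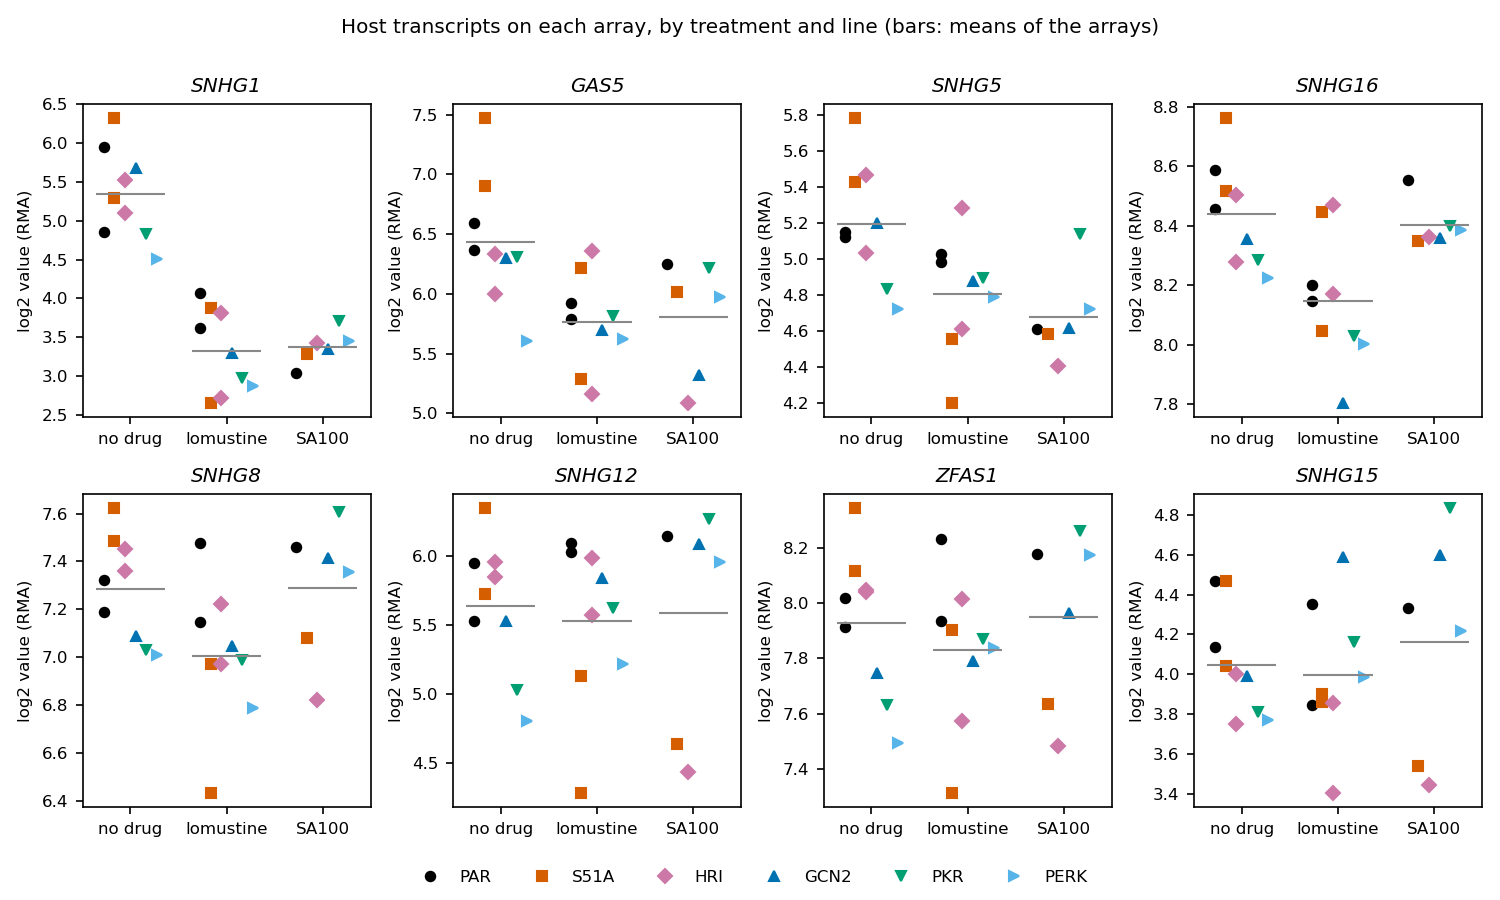
Log2 value of the 8 hosts with a probe set of 1 symbol on each of the 24 arrays, by treatment, with a marker for each line and a bar at the mean of the arrays of a treatment. SNHG1 is the host in which treated and untreated arrays do not overlap. In SNHG12, SNHG15, SNHG8 and ZFAS1 the SA100 arrays of S51A and HRI lie below those of the other 4 lines.

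The question for the other 7 hosts was whether they moved with SNHG1. With lomustine, limma called 0 of the 7 at an adjusted p under 0.05, where 1.03% of all genes were called. An unadjusted p under 0.05 was found in 4 of the 7, and in 2461 of all 17339 genes. All 7 changes were below 0, with a median of -0.28 against -0.04 over all genes. Over all genes, 60.9% of the changes were below 0. GAS5 had the next largest change, -0.67 (SE 0.192, adjusted p = 0.0989 by limma). Its untreated arrays had a lowest value of 5.61, a median of 6.33 and a highest of 7.47 (n = 9), and its lomustine arrays 5.16, 5.79 and 6.36 (n = 9). The groups overlapped, and GAS5 was lower in 5 of 6 lines, with PERK at 5.61 and 5.62. Without HRI lomustine repetition B, which leaves 1 array in that group, the GAS5 change was -0.80. With any other duplicated array left out, GAS5 was not called by limma.

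SNHG16, the host of SNORD1A and SNORD1B, had a smaller change of -0.30 (SE 0.0839, adjusted p = 0.0971 by limma). It was lower in all 6 lines, from -0.07 in HRI to -0.55 in GCN2. Its untreated arrays ran from 8.22 over a median of 8.46 to 8.76, and its lomustine arrays from 7.80 over 8.15 to 8.47. Leaving out HRI lomustine repetition B gave -0.34, and with any other duplicated array left out SNHG16 was not called by limma. SNHG5, which hosts SNORD50A and SNORD50B, changed by -0.39 (SE 0.15, adjusted p = 0.231 by limma). SNHG8, which hosts the H/ACA snoRNA SNORA24, changed by -0.28 (SE 0.128, adjusted p = 0.326 by limma). For both, S51A had the largest change of the 6 lines, -1.23 in SNHG5 and -0.85 in SNHG8, and without the S51A arrays the changes were -0.15 and -0.12.

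The remaining 3 hosts were close to 0 over the lines with lomustine. SNHG12 changed by -0.11 (SE 0.262), ZFAS1 by -0.10 (SE 0.135) and SNHG15 by -0.05 (SE 0.148), and none of the 3 was called. For SNHG12 and ZFAS1 the average joined lines that went opposite ways. Without S51A, the SNHG12 change was 0.24 and the ZFAS1 change 0.05. Normalizing the table again by quantiles also brought all 3 to slightly above 0, at 0.02, 0.01 and 0.03.

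With SA100, limma again called 0 of the 7, where 3.06% of all genes were called. An unadjusted p under 0.05 was found in 2 of the 7, and in 2867 of all 17339 genes. The median change of the 7 was -0.01, against 0.04 over all genes. GAS5 changed by -0.59 (SE 0.217, adjusted p = 0.163 by limma) and SNHG5 by -0.51 (SE 0.17, adjusted p = 0.118 by limma). GAS5 on the SA100 arrays was 6.25 in PAR, 6.02 in S51A, 5.09 in HRI, 5.33 in GCN2, 6.22 in PKR and 5.97 in PERK, so HRI and GCN2 were the low ones. SNHG5 was 4.61, 4.58, 4.40, 4.62, 5.13 and 4.72 in the same order, with PKR high and HRI low. Untreated SNHG5 ran from 4.72 to 5.78 (median 5.15, n = 9) and overlapped these levels. The changes of the other 5 hosts lay between -0.05 and 0.07.

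SA100 against lomustine compares the treatments directly. None of the 8 hosts was called by limma, where 5.95% of all genes were. An unadjusted p under 0.05 was found in 3663 of all 17339 genes and in 1 host. This was SNHG16, 0.29 higher with SA100 (SE 0.0946, adjusted p = 0.0723 by limma). Its SA100 arrays lay between 8.35 and 8.55, a narrow span inside the untreated one, and it was higher with SA100 than with lomustine in all 6 lines, by 0.04 in HRI and by 0.55 in GCN2. Leaving out HRI lomustine repetition B or S51A lomustine repetition A leaves 1 array in that group, so no calls are read from those fits. SNHG16 was not called with any other duplicated array left out. SNHG8 showed a difference of the same size, 0.30 (SE 0.144, adjusted p = 0.244 by limma), and was lower with SA100 than with lomustine in HRI.

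The host levels of the lines were compared over the 3 treatments together. None of the 8 hosts was called by limma in any of the 5 contrasts against PAR. Of the 40 tests, 1 had an unadjusted p under 0.05, SNHG15 in HRI. Between HRI and PAR, 1320 of all 17339 genes had such a p. The share of all genes called was 2.18% for S51A, 0.144% for HRI, 0.0692% for GCN2, 0% for PKR and 0.179% for PERK. SNHG15 differed by -0.54 between HRI and PAR (SE 0.198, adjusted p = 0.426 by limma). Among untreated cells alone, PERK had the lowest line mean for 8 of the 8 hosts, with SNHG8 at 7.01 and ZFAS1 at 7.49, and S51A had the highest for 7 of them. The PERK values are of 1 array, and these orders were not tested. The share of all genes with the same orders was not computed, so they are not read as a trait of the hosts. Fewer cells and less RNA per cell cannot be told apart on such arrays.

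With SA100 the levels of the lines lay apart in several hosts, with the widest gap in SNHG12. SNHG12, the host of 3 H/ACA snoRNAs and of SNORD99, was 6.15 in PAR, 6.09 in GCN2, 6.27 in PKR and 5.95 in PERK with SA100, but 4.63 in S51A and 4.43 in HRI. Untreated, the same gene was 5.53 and 5.95 in PAR, 5.73 and 6.35 in S51A, 5.85 and 5.96 in HRI, 5.53 in GCN2, 5.03 in PKR and 4.81 in PERK. The change with SA100 was therefore -1.40 in S51A and -1.47 in HRI, and between 0.41 (PAR) and 1.24 (PKR) in the other 4 lines. The SA100 arrays of S51A and HRI were below all 9 untreated arrays.

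By its name, the HRI line lacks a kinase known to act in arsenite-treated cells. The name S51A refers to a substitution at the serine that this kinase phosphorylates. The treatment text of the SA100 arrays gives sodium arsenite, but their agent field names lomustine. Whether the loss of this phosphorylation had a part in the orders given here was not tested. The pair of S51A and HRI was singled out after the values were seen, so no test of the pair is given. In 7 of the 8 hosts the SA100 change of both lines lay below that of each of the other 4, with SNHG1 as the exception, and 6.33% of all genes had this order. In 5 hosts, SNHG5, SNHG8, SNHG12, SNHG15 and ZFAS1, the SA100 level itself was lower in both lines than in each of the others, an order that 8.28% of all genes had.

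ZFAS1, an antisense transcript at the ZNFX1 gene that hosts 3 C/D snoRNAs, was 7.64 in S51A and 7.48 in HRI with SA100. In the other lines it was 8.18 (PAR), 7.97 (GCN2), 8.26 (PKR) and 8.17 (PERK). Its changes from no drug were -0.60 and -0.56 in S51A and HRI, and from 0.21 to 0.68 elsewhere. SNHG8 was 7.08 in S51A and 6.82 in HRI, against 7.46, 7.42, 7.60 and 7.36 in PAR, GCN2, PKR and PERK. SNHG15, the host of SNORA9, was 3.54 and 3.44 in S51A and HRI, against 4.33, 4.60, 4.83 and 4.22 in the same order. Its change was 0.03 in PAR and 1.02 in PKR, the highest of its 6 lines. GAS5 followed less closely, since GCN2 changed by -0.97, near the -1.17 of S51A and the -1.08 of HRI.

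**Figure D2:**
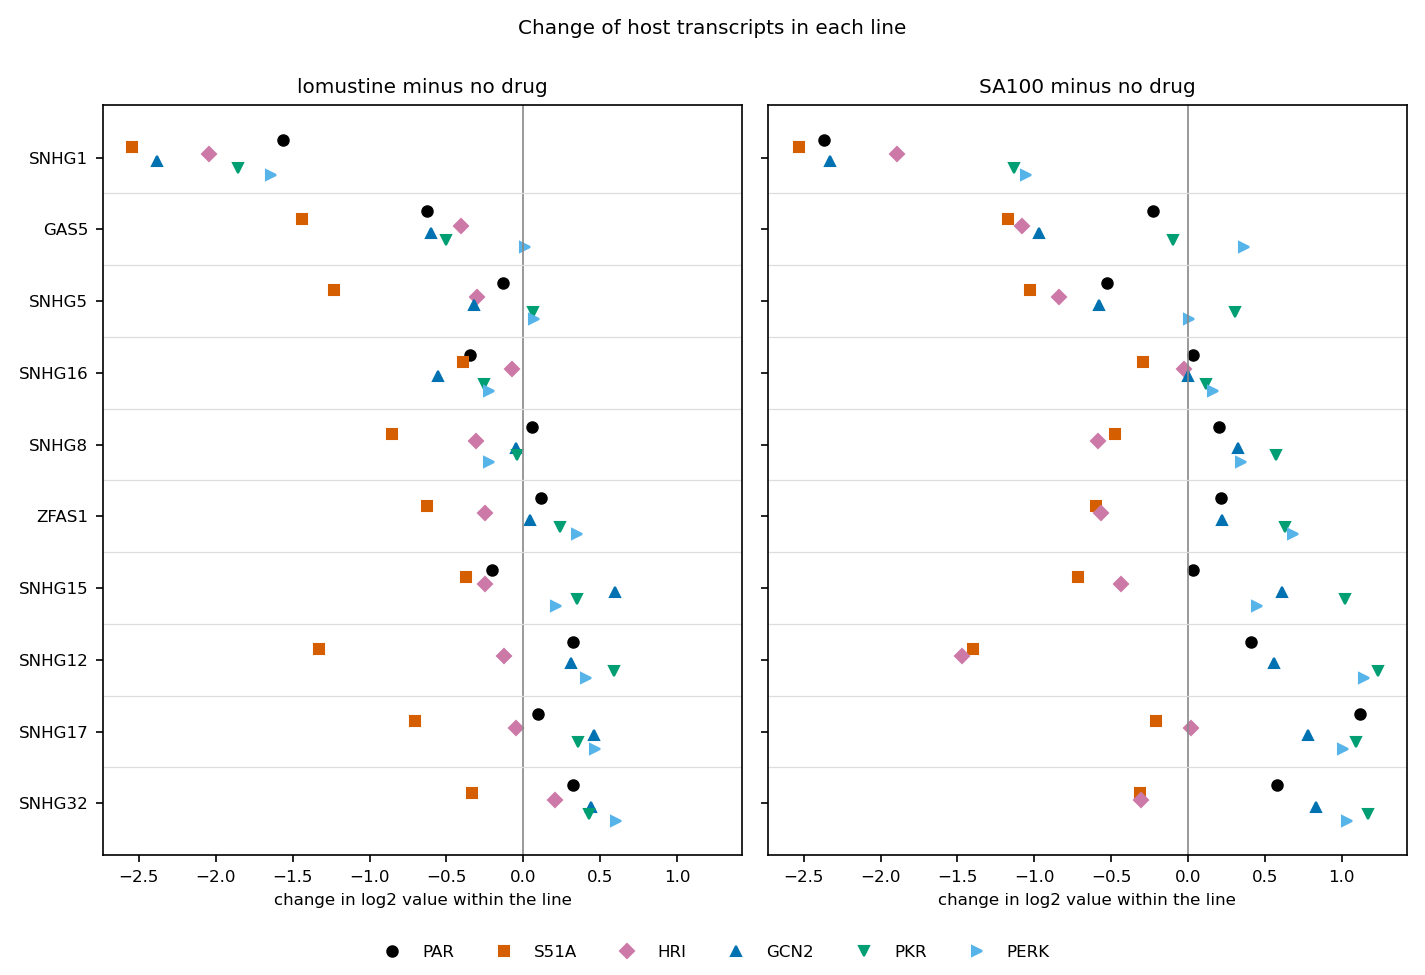
Change in log2 value from no drug within each line, with lomustine on the left and SA100 on the right, for the 8 hosts and for SNHG17 and SNHG32. A marker is the mean of a line's treated arrays minus that of its untreated arrays. SNHG1 is left of 0 in all lines, whereas with SA100 the S51A and HRI markers of SNHG12 are at -1.40 and -1.47 and the other 4 lines are right of 0.

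The differences between lines were tested against PAR with a mean for each of the 18 groups, which takes groups of 1 array to vary like the duplicated ones. For SA100, limma called 0 of the 40 host tests. These contrasts were added after the values were seen, so the differences of SNHG12 are given as a description. The SA100 change of SNHG12 in S51A minus that in PAR was -1.81 (SE 0.557), and in HRI the difference was -1.88 (SE 0.557). The share of all genes called in these contrasts was 0% for S51A, HRI, GCN2 and PERK and 0.00577% for PKR. The contrasts rest on 1 SA100 array for each line.

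With lomustine, S51A again had low values of SNHG12. It was at 5.13 and 4.28, below both of its untreated arrays, a change of -1.33, whereas HRI at 5.57 and 5.99 changed by -0.12. The other 4 lines changed by 0.31 to 0.59. In 4 of the 8 hosts, SNHG8, SNHG12, SNHG15 and ZFAS1, the lomustine changes of S51A and HRI were below those of each other line, and 6.73% of all genes had this order. In S51A the lower value of SNHG12, 4.28, came from repetition B, the array that stood apart, and repetition A alone differed by -0.91 from the mean of the untreated S51A arrays.

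Within the 3 lines with 2 arrays for each of no drug and lomustine, limma called 0 of the 21 tests of the hosts other than SNHG1, and 5 had an unadjusted p under 0.05, all in S51A (GAS5, SNHG5, SNHG8, SNHG12 and ZFAS1). Over all 17339 genes, 707 had an unadjusted p under 0.05 in S51A. The share of all genes called was 0% in PAR, 0.0115% in S51A and 0% in HRI. Without S51A lomustine repetition A, the array that stood apart is the lone one of its group. The SNHG12 change in S51A is then -1.75, and no calls are read from that fit. The lomustine response of S51A or HRI against that of PAR gave 0 calls in 16 tests, with 0% of all genes called in both contrasts and 3 host tests at an unadjusted p under 0.05. These were SNHG12 (-1.65, SE 0.455), SNHG5 (-1.10, SE 0.392) and SNHG8 (-0.91, SE 0.342), all in S51A. In that contrast of S51A, 109 of all 17339 genes had an unadjusted p under 0.05.

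The snoRNAs in the introns of the hosts give a second readout of the same genes. All 35 snoRNAs on a list of those known to be hosted by the 10 genes lay inside their host in RefSeq, and 9 of them had a probe set of their own. SNORD75 and SNORD12C had been seen to fall before the hosts were selected, so their values are a description with no test. Of the other 7, limma called 0 with lomustine, where 1.03% of all genes were called, and 3 had an unadjusted p under 0.05. With SA100, where 3.06% were, it called 1, SNORD1B, and 4 had an unadjusted p under 0.05. Over all 17339 genes, 2461 had an unadjusted p under 0.05 with lomustine and 2867 with SA100. All 7 changes were below 0 with each treatment, against 60.9% and 39.7% over all genes. The medians of the 7 were -0.19 and -0.37, against -0.04 and 0.04 over all genes. SNORD99, counted in the 3 and in the 4, passed the filter only through untreated arrays. Its lomustine arrays reached at most 2.19 and its SA100 arrays 1.66, so its part in these counts and medians is not read as a result. No snoRNA of SNHG1, SNHG5, SNHG6, SNHG7 or SNHG15 had a probe set with its symbol alone, so the fall of SNHG1 cannot be set beside its own snoRNAs.

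In GAS5 the 2 snoRNAs measured went different ways. SNORD75 had untreated values of 4.92 and 5.96 in PAR, 5.15 and 5.90 in S51A, 4.21 and 4.95 in HRI, 5.42 in GCN2, 3.74 in PKR and 4.89 in PERK. With lomustine these lines were at 3.69 and 3.73, 2.25 and 3.07, 2.43 and 2.78, 2.12, 2.39 and 2.12, and with SA100 all 6 lay between 2.03 and 2.47. The change of SNORD75 was -2.28 with lomustine (SE 0.224) and -2.69 with SA100 (SE 0.252). Its SA100 mean of 2.24 was below the median of all values, so the size of that decrease is bounded by the low end of the scale. SNORD78, in another intron of GAS5, had untreated values from 8.98 to 9.73 and lomustine values from 8.88 to 10.10. Its changes were -0.02 with lomustine (SE 0.117) and -0.37 with SA100 (SE 0.132, adjusted p = 0.15 by limma). The host, at -0.67 and -0.59, stood between its 2 snoRNAs with either treatment.

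ZFAS1 gave a similar contrast among 3 snoRNAs. The change of SNORD12C was -1.95 with lomustine (SE 0.327) and -1.56 with SA100 (SE 0.369). Its untreated arrays ran from 5.04 to 6.37 (median 5.94, n = 9), its lomustine arrays from 2.37 to 5.60 (median 3.64, n = 9) and its SA100 arrays from 3.81 to 4.75 (median 4.09, n = 6). The SA100 arrays lay below all untreated ones, and the lomustine arrays of PAR and S51A were far apart within each line, at 3.28 and 5.60 in PAR and at 5.22 and 2.37 in S51A. SNORD12 changed by -0.19 with both treatments (SE 0.197 and 0.222) and SNORD12B by -0.12 and -0.13 (SE 0.176 and 0.199). With SA100, SNORD12C changed by -2.33 in S51A, -2.20 in PAR and -0.29 in PERK, so PAR lay near S51A here and not near PERK as in ZFAS1 itself.

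SNORD1B, hosted by SNHG16, fell by 0.84 with SA100 (SE 0.193, adjusted p = 0.0198 by limma) and changed by -0.60 with lomustine (SE 0.171, adjusted p = 0.0986 by limma). Its neighbour SNORD1A changed by -0.38 and -0.39 with lomustine and SA100 (SE 0.116 and 0.131) and was not called. The SA100 arrays of SNORD1B ran from 2.24 to 2.76, against 2.72 to 3.98 untreated. Their mean of 2.41 was at the median of all values, so the size of this decrease too is bounded by the low end of the scale. The host SNHG16 had a change of -0.01 with SA100, and the difference between host and snoRNA was not tested. SNORA24 in SNHG8 changed by -0.05 and -0.12 (SE 0.0928 and 0.105). SNORD99 in SNHG12 changed by -0.50 and -0.71 (SE 0.197 and 0.222), but most of its arrays were below the median of all values. Only untreated arrays were above it.

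**Figure D3:**
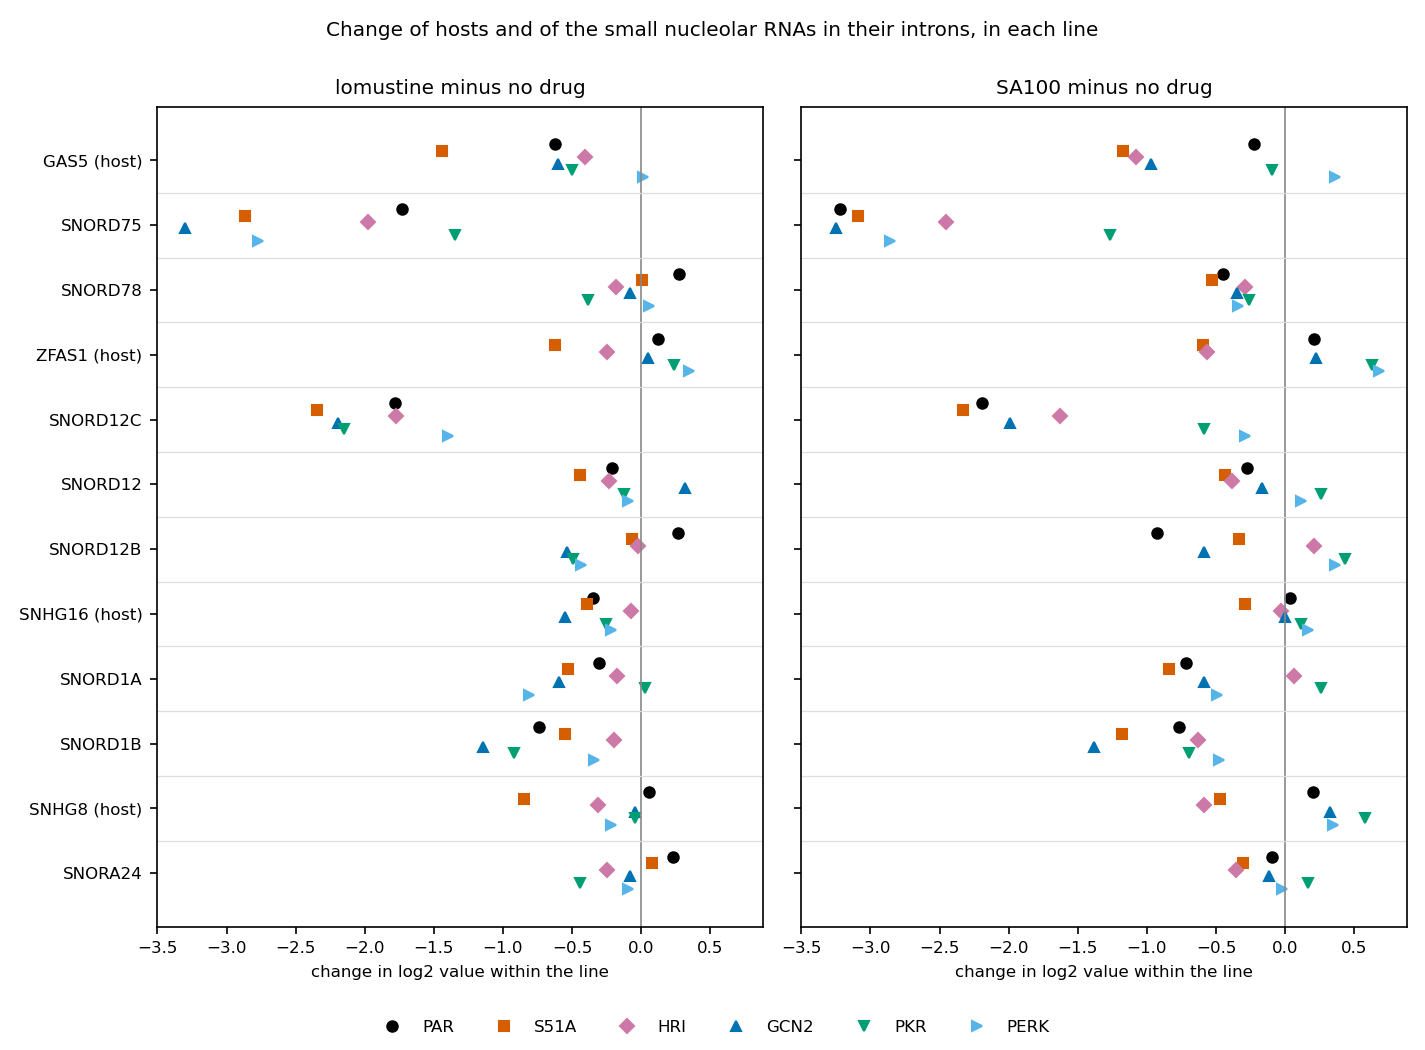
Change in log2 value from no drug within each line for 4 hosts and for the snoRNAs in their introns, with lomustine on the left and SA100 on the right, and a marker for each line. SNORD75 and SNORD12C lie left of 0 in all 6 lines with both treatments, while SNORD78, SNORD12 and SNORD12B of the same hosts stay within 1 log2 unit of 0.

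The probe sets with several symbols were fitted with all 20140 annotated probe sets that passed the filter. The probe set shared by SNHG6 and SNORD87 changed by -0.40 with lomustine (SE 0.121, adjusted p = 0.111 by limma) and by -0.40 with SA100 (SE 0.136, adjusted p = 0.122 by limma), and was lower in all 6 lines with each. Its untreated arrays ran from 3.43 to 4.47, its lomustine arrays from 3.28 to 4.11 and its SA100 arrays from 3.37 to 3.72, so the groups overlapped. The probe set shared by SNHG7, SNORA17A and SNORA17B changed by -0.02 (SE 0.108) and 0.25 (SE 0.122), and was higher in all 6 lines with SA100. A probe set shared by SNHG15 and SNORA9 varied widely with lomustine, from 3.90 to 7.74, and changed by -0.44 (SE 0.404) and -0.83 (SE 0.456). One shared by GAS5 and GAS5-AS1 stayed between 1.74 and 2.64, at the low end of the scale. A signal on these probe sets cannot be assigned to the host or to the snoRNA.

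Other non-coding hosts, from a list of 18, had 7 on the array and 6 tested. SNHG19 fell by 0.78 with SA100 (SE 0.133, adjusted p = 0.0013 by limma), from a mean of 6.89 (SD 0.22, n = 9) to 6.09 (SD 0.305, n = 6), and was lower in all 6 lines. It was the only one of the 6 called with SA100, where limma called 3.06% of all genes. With lomustine, where 1.03% of all genes were called, limma called 0 of the 6. An unadjusted p under 0.05 was found in 2 of the 6, and in 2461 of all 17339 genes. SNHG17 was the only one called between the treatments, 0.57 higher with SA100 than with lomustine (SE 0.16, adjusted p = 0.0381 by limma). In that contrast 5.95% of all genes were called. In SNHG17, SNHG32 and EPB41L4A-AS1 the SA100 changes of S51A and HRI also lay below those of the other 4 lines, which was not tested. SNHG18, SNHG19 and SNHG21 did not have this order, and 6.33% of all genes had it. With SA100, SNHG32 changed by -0.31 in both S51A and HRI and by 0.58 to 1.17 in the other 4 lines, and SNHG17 by -0.21 and 0.02 against 0.78 to 1.12.

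Protein-coding hosts, mainly genes of ribosomal proteins and nucleolar factors, had 15 of 43 listed genes tested. With lomustine 3 of the 15 fell and none rose, where 1.03% of all genes were called, and the median of the 15 was -0.17 against -0.04 over all genes. These were NCL, the gene of the nucleolar protein nucleolin, at -0.38 (SE 0.0753, adjusted p = 0.0135 by limma), and the ribosomal protein genes RPL12, at -0.86 (SE 0.191), and RPL32, at -0.75 (SE 0.164). The probe sets of RPL12 and RPL32 had untreated means of 4.26 and 3.80, on a scale with a median of 2.42 and a highest value of 12.47. How well they follow the transcripts of these genes was not tested. With SA100, where 3.06% of all genes were called, NCL fell by 0.36 (SE 0.085) and RPL12 fell by 1.13 (SE 0.216), and the median was -0.12 against 0.04. NCL was lower in all 6 lines with both treatments, and its SA100 change of -0.22 to -0.40 in S51A and HRI lay inside the range of the other lines.

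Proteins that bind and assemble snoRNAs, 16 of 18 listed, had a median change of -0.12 with lomustine, 0.08 with SA100 and 0.24 for SA100 against lomustine, where the medians of all genes were -0.04, 0.04 and 0.08. PIH1D1, part of the complex that assembles box C/D particles, was the 1 called, higher by 0.44 with SA100 (SE 0.107, adjusted p = 0.0269 by limma). With SA100, 3.06% of all genes were called. Factors of nonsense-mediated decay, 10 of 14 listed, had medians of -0.15, 0.04 and 0.23 in the same contrasts. SMG8 and SMG9, which regulate the decay kinase SMG1, were higher with SA100 than with lomustine by 0.59 (SE 0.173) and 0.39 (SE 0.109). Between these treatments 5.95% of all genes were called. Neither list had a gene called with lomustine by limma, where 1.03% of all genes were. In the lists, 2 and 3 genes had an unadjusted p under 0.05 by limma with lomustine, as did 2461 of all 17339 genes.

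The likeness of profiles was measured by Pearson's r over the 18 group means, which share arrays and scaling, and is given as a description. The 3 genes most like SNHG1 were snoRNAs of other hosts: SNORD4B (r = 0.965), SNORD35B (r = 0.964) and SNORD12C (r = 0.954). The rule also asked for the host with the largest positive lomustine change. No host had one, and SNHG15, at -0.05, was nearest. Its likest genes were CCNL2 (r = 0.887), a cyclin of the splicing machinery, PHPT1 (r = 0.863) and LRIG2 (r = 0.849). Chosen after the values were seen, the gene most like SNHG12 was another host, ZFAS1 (r = 0.901).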

How the data were processed

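Biotin-labelled RNA of 24 HAP1 samples was hybridised to Affymetrix arrays. The authors deposited log2 values for 53617 probe sets, made with RMA and the package affy per the submitters' processing notes; versions, filters and a genome build are not given in the sources used here. Probe sets took symbols from GEO's platform annotation (23558 with 1 symbol, 2155 with several, 27904 with none; 22271 of the first matched RefSeq by gene ID). The probe set with the highest mean stood for a gene. Genes at or above the median of all values, 2.42, on at least 2 arrays were tested (17339 genes), and the 8 hosts exceeded it on all 24. R 4.3.3 and limma 3.58.1 fitted treatment plus line (16 residual degrees of freedom), or 18 group means (6), with Benjamini-Hochberg adjustment over all genes and a threshold of 0.05. The number of arrays limits the precision.

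The members and lists were chosen with earlier results of these data known. Hosts were always named, as were called list genes with the largest changes. Alternatives were other filters, probe set rules, normalizations and priors, fewer arrays, group means and a replicate block. The SA100 response of each line against PAR was added after seeing the data.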

Additional observations from a re-analysis of the deposited data

Results flagged for a closer look

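The PAR array with SA100 gave SNHG16 a value of 8.55, farther above the other 5 SA100 arrays, which lay between 8.35 and 8.40, than Dixon's 95% criterion allows. Of 24 groups of host and treatment this was the 1 that exceeded it, and chance exceeds it in about 1 of 20 groups.

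The response of S51A or HRI ran opposite to that of PAR on every array compared in 7 of 32 cases. The share of all genes that did so was not computed, so the count is not read as particular to the hosts. With SA100, the change of SNHG12 minus that of PAR was -1.81 in S51A and -1.88 in HRI. For ZFAS1 the differences were -0.81 in S51A and -0.77 in HRI, and for SNHG8 -0.68 and -0.79. With lomustine, SNHG12 in S51A differed from PAR by -1.65. Each SA100 value rests on 1 array per line. In the limma fit with 18 group means none of the 7 differences was called, with adjusted p of at least 0.995.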

How the results depend on the processing

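The letters A and B did not pair arrays. Across genes, A minus B with no drug against A minus B with lomustine gave r = 0.334 for PAR, -0.388 for S51A and -0.561 for HRI. With the letters as a replicate block over the 12 duplicated arrays, 0 hosts were called for lomustine, and SNHG1 changed by -2.05. It left the counts within and between lines at 0. The share of all genes called with this block was not computed, so these counts are not read as a result about the hosts.

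For SA100 against lomustine, the count was 1 (SNHG16) with a trended robust prior, which called 5.9% of all genes. When each duplicated array was left out in turn, the count for lomustine, SNHG1 included, ranged from 1 to 3. These fits called 0.513% to 1.85% of all genes, and the count was 3 without HRI lomustine repetition B, where 1.07% were called. For SA100 against lomustine the count ranged from 0 to 1, where 5.02% to 7.13% of all genes were called. For lomustine within lines such fits leave a group with 1 array, so their counts are not given. The cause was not tested. The other counts kept within 1.5 times their value.

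Of 688 values of single hosts under the alternatives, 47 changed sign, 4 of them by more than 1 standard error. Without S51A, SNHG12 changed by 0.24 with lomustine and 0.29 with SA100, and ZFAS1 by 0.053 with lomustine. Without HRI, SNHG12 changed by 0.26 with SA100. The others that changed sign moved by less than 1 standard error, among them SNHG12, ZFAS1 and SNHG15 with lomustine after quantile normalization (0.02, 0.01 and 0.03). Of the values of single hosts, 662 kept their direction or moved by less than 1 standard error and their side of the threshold, 16 moved more, 5 became called and 1 lost its call.

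Limits: 12 of the 18 groups are single arrays. S51A lomustine repetition B stood apart and weighs on every S51A lomustine mean. Where in a gene the probes lie was not used here, so exons and introns of a host cannot be told apart. The title and the agent field of the SA100 arrays conflict.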
